A study of Homo sapiens with 96 samples.

Results

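The genes described here are 8 genes of cholesterol synthesis and its control, HMGCS1, IDI1, FDFT1, SQLE, SC5D, DHCR7, INSIG1 and SREBF2, out of 58521 gene symbols counted in each library. They were taken by name, and the rule uses none of the values measured here. Of the 8 genes, 6 encode enzymes of the pathway and 2 encode regulators. None of them (0) encodes a protein of cholesterol uptake, so uptake genes appear only in the wider lists below. The libraries came from 96 wells of 1 plate with 8 rows and 12 columns, each well holding the messenger RNA of a single HUES64 cell. HUES64 is an established human embryonic stem cell line, here with an inducible knockout of DNMT1, the methyltransferase that copies DNA methylation to new strands, at day 0. The labels disagree on doxycycline, which one field of each well records as present and another as absent, and this could not be settled. All wells carried the same labels and no second culture was named, so they form 1 group and count as 1 sample. Every value is therefore a description of these wells, and no test between conditions could be made.

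Cholesterol is built from acetyl-CoA through mevalonate, isoprenoids, squalene and a chain of sterols. When sterols run low in the endoplasmic reticulum, the escort protein SCAP carries the precursor encoded by SREBF2 to the Golgi, where it is cut, and the freed fragment raises transcription of the synthesis genes. INSIG1 holds the precursor back when sterols are plentiful, and it is itself a target of that fragment. Dividing cells such as embryonic stem cells need cholesterol for new membrane.

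The promoters of 3 of the genes are shown because they belong to the regulators (SREBF2 and INSIG1) and to the first enzyme in the list (HMGCS1). Each is the stretch of 250 bases before the transcription start in the RefSeq table for GRCh38.p14, written along the gene. Capitals mark the SREBP site and the NF-Y box. The SREBF2 stretch is chr22:41832855-41833104 on the plus strand, that of INSIG1 is chr7:155297628-155297877 on the plus strand, and that of HMGCS1 is chr5:43313413-43313662 on the minus strand.
SREBF2: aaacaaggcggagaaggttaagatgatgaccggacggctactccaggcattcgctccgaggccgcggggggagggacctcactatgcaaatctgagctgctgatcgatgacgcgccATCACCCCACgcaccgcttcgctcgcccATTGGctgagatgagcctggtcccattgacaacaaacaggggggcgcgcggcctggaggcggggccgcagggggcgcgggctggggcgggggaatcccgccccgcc
INSIG1: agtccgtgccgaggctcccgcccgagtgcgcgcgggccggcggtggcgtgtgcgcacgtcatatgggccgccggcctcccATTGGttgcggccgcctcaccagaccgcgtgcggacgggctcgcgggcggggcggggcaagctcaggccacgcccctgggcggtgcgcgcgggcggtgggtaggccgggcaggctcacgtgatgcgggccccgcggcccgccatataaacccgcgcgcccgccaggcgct
HMGCS1: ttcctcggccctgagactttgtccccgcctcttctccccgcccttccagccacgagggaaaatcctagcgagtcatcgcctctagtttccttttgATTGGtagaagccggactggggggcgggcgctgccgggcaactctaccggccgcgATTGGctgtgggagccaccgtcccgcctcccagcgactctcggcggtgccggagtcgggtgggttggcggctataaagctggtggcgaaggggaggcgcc

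Motifs were searched on both strands in the window from 250 bases before to 50 bases after each start, over 35116 promoters of 27305 genes outside chromosome 8. The table matched 6 of the 8 genes, with 11 promoter sequences, and FDFT1 and SQLE were not included. The NF-Y box CCAAT, bound by a factor known to act beside SREBP, was found for 6 of these 6 genes, against 39.7% of all genes. By sequence it was found in 8 of the 11, against 34.6% of all promoters. These 6 genes had more sequences per gene than all genes did, which gives each gene more chances of a match. The GC box GGGCGG was found for 6 of 6 genes, against 48.3% of all genes. The SREBP site TCACNCCAC was found for SREBF2 alone among the 6, against 1.39% of all genes. A stricter form of 10 bases, which overlaps it and is the longer run of capitals in the SREBF2 promoter above, was found for 16 genes in all (0.0586%), SREBF2 among them. A match of letters is a description of the sequence, and no match says only that these letters are not in this window.

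A library entered with at least 100000 gene reads, at least 2000 genes with a read and mitochondrially encoded genes at 1% or more of its gene reads. This kept 84 libraries, 22 of them in plate rows F and G and 62 in the other rows. They held 118549 to 1877837 gene reads (median 768161), so that 3 reads corresponded to 25.3 down to 1.60 CPM, reads of a gene scaled to a total of 1000000 gene reads. The mitochondrial share had a median of 9.51% and ranged up to 41.8%. A further 6 libraries passed on reads and genes but had a mitochondrial share below 1%, and 6 fell short of reads or genes. Of 8 markers of pluripotent stem cells, 8 averaged 10 CPM or more in the 84 libraries, among them POU5F1 with 448 CPM, TDGF1 with 684 CPM and NANOG with 58.3 CPM. Of the hepatocyte markers, ALB and APOA1 averaged under 1 CPM, and TTR averaged 10.6 CPM, of which well D4 held 98.7%.

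All 8 genes were read in most libraries, and 7 of them averaged above 100 CPM. Of all 9003 genes averaging 10 CPM or more, 8185 were read in 50% or more of libraries. HMGCS1 encodes the cytosolic synthase that makes the precursor of mevalonate and lies at chr5:43289395-43313512 in GENCODE 29 on GRCh38. It had between 0 and 2870 CPM, with a median of 365 CPM, a mean of 476 ± 524 CPM (SD over 84 libraries) and a read in 82 of 84 libraries (97.6%). IDI1, at chr10:1039152-1049170, encodes the isomerase that makes the reactive isoprene unit. It had 0 to 3068 CPM, a median of 465 CPM and a mean of 583 ± 557 CPM, and was read in 77 of 84 libraries (91.7%). FDFT1 encodes squalene synthase, the first enzyme committed to sterols. Its level was the least variable of the 8, with 0 to 1118 CPM, a median of 400 CPM and a mean of 384 ± 280 CPM, and it was read in 81 libraries (96.4%). The coefficient of variation of FDFT1 was 0.727, and among 441 genes with a mean within a factor of 1.5 only 23.1% had a lower one. That of HMGCS1 was 1.10, above 86.3% of 336 such genes.

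The enzymes after squalene covered a wider range of levels. SQLE encodes squalene epoxidase, a rate-limiting step of the sterol branch. It had 0 to 869 CPM, a median of 112 CPM and a mean of 156 ± 179 CPM (SD over 84 libraries), with reads in 72 libraries (85.7%). SC5D, at chr11:121292453-121308694, encodes a desaturase late in the pathway. It had 0 to 1744 CPM, a median of 390 CPM and a mean of 423 ± 388 CPM, with reads in 74 libraries (88.1%). DHCR7, at chr11:71428193-71452868, encodes the reductase that is deficient in Smith-Lemli-Opitz syndrome. It was the only one of the 8 with a read in 84 of 84 libraries, with 3.22 to 674 CPM, a median of 84.5 CPM and a mean of 140 ± 152 CPM.

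The regulators were the lowest of the list. INSIG1, at chr7:155297776-155310235, had 0 to 542 CPM, a median of 66.7 CPM and a mean of 114 ± 144 CPM (SD over 84 libraries), and was read in 69 libraries (82.1%). SREBF2, at chr22:41833079-41907308, had 0 to 172 CPM, a median of 15.05 CPM and a mean of 30.6 ± 38.1 CPM, and was read in 74 libraries (88.1%). Its mean level stood above 37.6% of the 8185 genes that averaged 10 CPM or more and were read in 50% or more of libraries, while that of IDI1 stood above 97.2%. No single library carried more than 7.17% of the summed CPM of any of the 8 genes, that share being HMGCS1 in well A12.

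**Figure D1:**
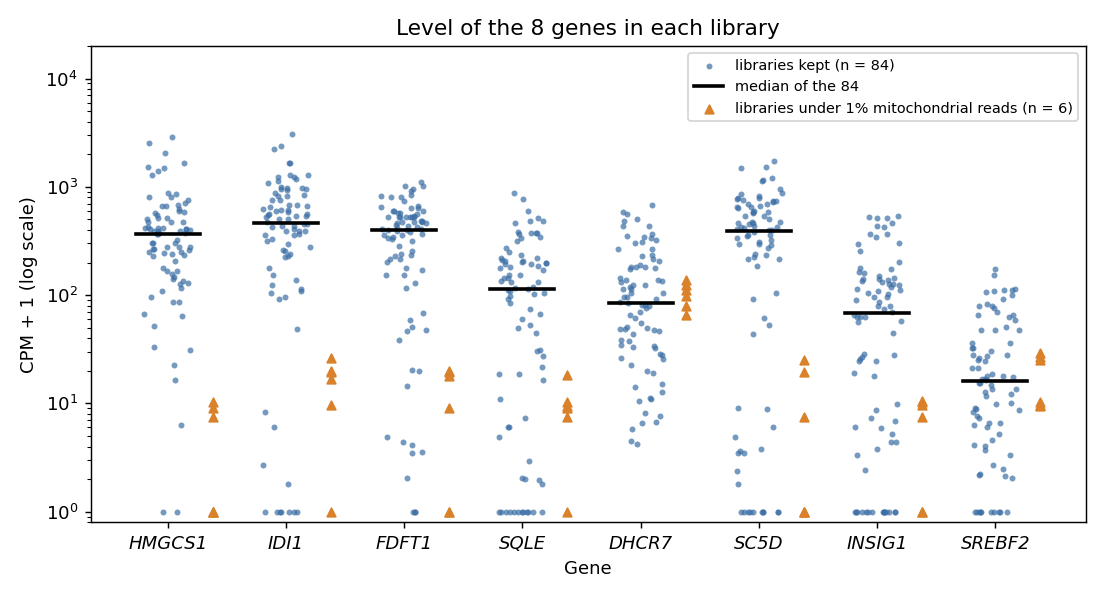
Level of each gene in CPM (y axis, log scale of CPM + 1) by gene (x axis), with 1 point per library for the 84 libraries kept and for the 6 libraries under 1% mitochondrial reads. IDI1 and HMGCS1 reach the highest levels, 3068 and 2870 CPM, and for DHCR7 and SREBF2 the low-mitochondrial points, 64.4 to 136 and 8.44 to 28.4 CPM, lie inside the main cloud.

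Per kilobase of exon, the mean levels fell in the order IDI1 with 134, HMGCS1 with 101, SC5D with 75.96, FDFT1 with 73.9, SQLE with 36.3, DHCR7 with 33.7, INSIG1 with 31.1 and SREBF2 with 4.05 CPM per kilobase. Each gene's SD over libraries was close to its mean or above it, apart from FDFT1. That spread is between libraries. Genes were not compared within libraries, so the order is one of means and was not tested. The widest step in ratio was the last one, between INSIG1 and SREBF2. Per kilobase of the longest coding transcript the order of the first 4 changed, to IDI1 with 173, SC5D with 172, FDFT1 with 145 and HMGCS1 with 136 CPM per kilobase. Exon lengths are the union of exons in GENCODE 29, and the authors may have counted against another annotation.

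The zeros were not all a matter of shallow libraries. INSIG1 had no read in 15 libraries, whose depth ran from 317618 to 1373268 gene reads and allowed a level of up to 9.45 down to 2.18 CPM by the limit of 3 reads. SREBF2 had none in 10 libraries of 399155 to 1373268 gene reads. HMGCS1 was at 0 in 2 libraries of 118549 and 257404 gene reads, which allowed up to 25.3 and 11.7 CPM. IDI1 and SC5D were either clearly present or nearly absent: IDI1 had at least 40 CPM in 73 libraries, under 10 CPM in 11 and a value between in 0, and SC5D had 64, 20 and 0. These edges were chosen after the values were seen. The other genes filled the gap, with 4 libraries of HMGCS1, 4 of FDFT1, 8 of SQLE, 18 of DHCR7, 8 of INSIG1 and 28 of SREBF2 between 10 and 40 CPM. Amplified reads without molecular identifiers are not independent molecules, so limits and intervals here cover counting error only.

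Libraries differed in how many of the 8 genes they showed. At least 10 CPM of all 8 genes was found in 31 libraries, of 7 genes in 21 and of 6 genes in 12, and the lowest number was 2 genes, in 2 libraries. A read of all 8 genes was found in 50 libraries. Without DHCR7 and SREBF2, whose levels in libraries of little mitochondrial RNA are given below, the other 6 genes all had at least 10 CPM in 43 libraries, and 5 of them did in 20. The summed level of the 8 genes ranged from 168 to 5799 CPM, with a median of 2173 CPM (quartiles 1687 and 2798). IDI1 was the highest of the 8 in 29 libraries, SC5D in 20, FDFT1 in 16, HMGCS1 in 15, and SQLE and DHCR7 in 2 each.

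Single wells at the extremes, picked after their values were seen, differed in which enzymes they held. Well E4 had the highest sum, made of 3068 CPM of IDI1 and 2522 CPM of HMGCS1. The same well had 0 reads of SQLE and of INSIG1 and 1 read of SC5D among 736002 gene reads, and its GAPDH level was 8.15 CPM. Well A12 had 2870 CPM of HMGCS1 and 530 CPM of INSIG1, but 1 read each of IDI1, SQLE and SC5D among 1244086 gene reads, and a GAPDH level of 0.804 CPM. Well D7 held 7 of the 8 genes at 10 CPM or more, with 1212 CPM of SC5D and 105 CPM of SREBF2 against 8.91 CPM of INSIG1. Well A10 held all 8, from 15.9 CPM of SREBF2 to 1508 CPM of HMGCS1. The lowest sum, 168 CPM, was in well E10, which also had the highest mitochondrial share (41.8%), and 66.7% of it was DHCR7. The 6 libraries under 1% mitochondrial reads had sums of 121 to 224 CPM, so the sum in E10 lay within their range. How much RNA of a cell well E10 held was not tested.

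The count of HMGCS1 depended on the strand column. Over the 84 libraries the column without regard to strand, used throughout, gave 35324 reads, while the forward and reverse columns gave 35789 and 35104, 70893 together and 2.01 times as many. Per library the ratio ran from 1.29 to 4.5. The symbol CTD-2636A23.2 had 13 reads without regard to strand and 35580 over both strand columns. The reads that HMGCS1 gained (35569) and those that CTD-2636A23.2 gained (35567) were equal in 78 of 84 libraries and within 5% in 84 of 84. In GENCODE 29 an antisense gene on the opposite strand shares 703 exon bases (15%) with HMGCS1, and reads from a gene and its antisense partner cannot be told apart in these libraries.

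With both strand columns summed, HMGCS1 averaged 871 CPM and led the list per kilobase, at 185 against 135 CPM per kilobase for IDI1. Libraries kept nearly the same order for HMGCS1 between the columns (Spearman's rho 0.96 over 84 libraries). IDI1 gained by a ratio of 1.11, with IDI2-AS1 as its overlapping partner, and SREBF2 by 1.05. For the other 5 genes the ratio was at most 1.003. Over the 9003 genes averaging 10 CPM or more, the median ratio was 1.002, and 2.7% had a ratio at or above that of HMGCS1.

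**Figure D2:**
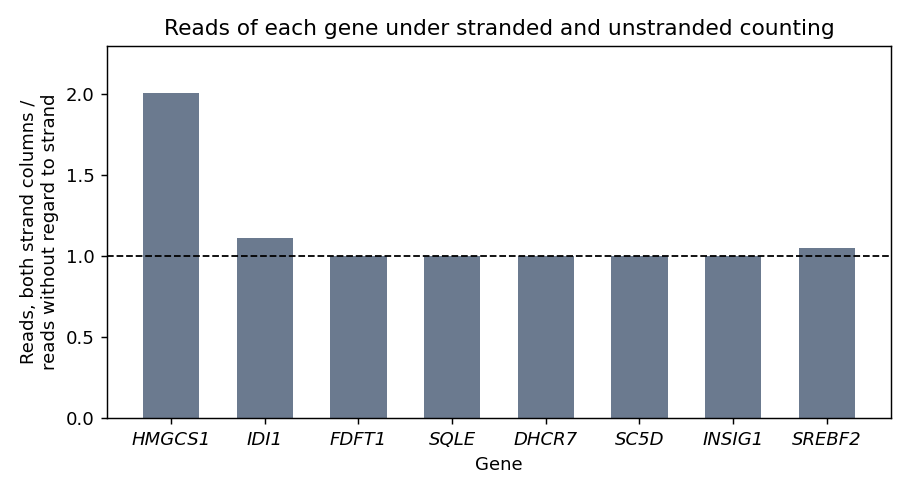
Reads summed over both strand columns divided by reads counted without regard to strand (y axis, ratio) for each gene (x axis), over 84 libraries, with a dashed line at 1. HMGCS1 stands at 2.01 and IDI1 at 1.11, and the other 6 lie between 1 and 1.05.

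Over the 28 pairs of the 8 genes, Spearman's rho of CPM across the 84 libraries had a median of 0.18, from -0.16 to 0.42, and 5 pairs were below 0. Over all pairs of the 8177 other genes at 10 CPM or more and read in 50% or more of libraries it had a median of 0.094 (quartiles -0.021 and 0.20). A rho of 0.25 or more was found for 9 of the 28 pairs and for 15.2% of all pairs. Within other lists of genes the median was 0.22 (S phase), 0.25 (pluripotency), 0.34 (G2/M), 0.34 (housekeeping) and 0.53 (glycolysis), all above that of the 8 genes. Within the neural markers it was 0.13. The points share 1 plate, 1 culture and the depth of each library, and in sparse counts a weak correlation is no finding. With ranks adjusted for gene reads and genes detected, the median was 0.11 over the 28 pairs and 0.038 over all pairs. Unadjusted, the median over the 28 pairs was 0.19 within rows F and G and 0.15 within the other rows.

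SQLE and SC5D, both after squalene, gave 0.42, and 1.70% of all pairs of genes were as high. FDFT1 and DHCR7 also gave 0.42. SQLE had the highest median with the other 7 genes, 0.29, and DHCR7 had 0.27. HMGCS1 had the lowest median, -0.01, with values from -0.16 against SC5D to 0.24 against IDI1 and 0.25 against INSIG1. IDI1 and FDFT1 gave -0.36 within the 22 libraries of rows F and G and 0.46 within the other rows, with a pooled value of 0.25. DHCR7 and INSIG1 gave 0.72 and 0.17. These 2 pairs were picked after the values were seen, and a rho over 22 libraries is imprecise.

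**Figure D3:**
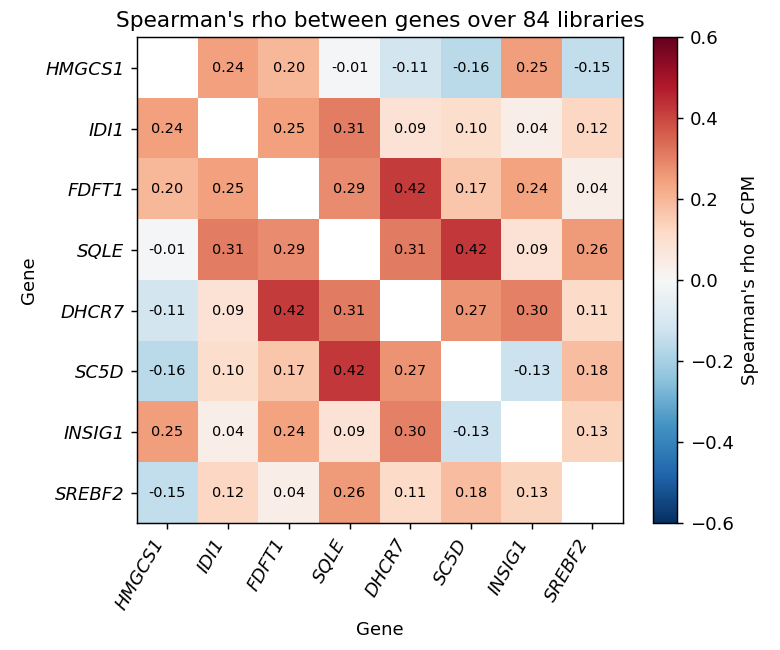
Spearman's rho between each pair of the 8 genes (rows and columns), over 84 libraries, with colour from blue (negative) to red (positive). The highest values, 0.42, join SQLE with SC5D and FDFT1 with DHCR7, and the row of HMGCS1 holds 4 of the 5 negative values.

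Among the measures of a library compared, the summed level had its highest rho with depth. It was 0.26 with gene reads (Pearson's r of log2 values 0.41, and 0.29 without the 2 libraries farthest from the median depth). FDFT1 (0.43) and HMGCS1 (0.34) were the genes with the highest rho with gene reads. The rho of the summed level was -0.09 with genes detected after thinning to 100000 gene reads, -0.06 with the mitochondrial share and 0.07 with GAPDH. With the mean z-score of the list of S-phase genes it was 0.21, with G2/M genes 0.04 and with pluripotency genes 0.25. With housekeeping genes it was 0.24, with glycolysis genes 0.15 and with KCNJ2 -0.22. Pearson's r was higher with pluripotency genes (0.47) than with gene reads, so which of these 2 measures came first depended on the statistic. Single genes differed more: DHCR7 had a rho of 0.56 with GAPDH and -0.57 with the ratio of MT-CO2 to MT-CO1, FDFT1 had 0.45 and -0.32, and HMGCS1 had -0.03 and 0.14. What GAPDH and the mitochondrial ratio have to do with these levels was not tested.

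The genes whose pattern was most like each of the 8 were named by the highest rho among the other genes of the 8177. IDI1 was closest to MSMO1, a sterol oxidase of the same pathway (0.46), then to GAS5 and PMAIP1 (0.42 each). SC5D was closest to DSG2 (0.57), SERINC5 (0.55) and RDH11 (0.51). LGMN and C6orf48 were among the 3 closest to SQLE (0.57 and 0.56). DHCR7 was closest to TMEM39B (0.62), UROD (0.61) and DCLK1 (0.60), and FDFT1 to NIPSNAP1 (0.58), CDC16 (0.57) and UBXN2B (0.55). HMGCS1 was closest to ATP5O (0.57), RPS20 (0.54) and C7orf73 (0.52). INSIG1 was closest to HMGN5 (0.54), RARS (0.48) and RHEB (0.46), and SREBF2 to SOX2, ERBB2 and IVD (0.46 each).

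For the mean z-score over the 8 genes, which gives each gene equal weight, the closest were PRPF3 (0.66), IGF2BP1 (0.64), EXOSC7 (0.64), PSPC1 (0.64) and AP2M1 (0.63), against a median of 0.23 over the 8177 genes. GAPDH followed with 0.63, although its rho with the summed level was 0.07. The list went on with PRMT1, MRPS15, TIMM10B and RCC2, from 0.62 to 0.61. All of these values are over the same 84 libraries.

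Plate rows F and G stand apart from the other rows in other genes of these data, and the 8 genes were compared between them. None of the 8 genes (0) was past 2-fold either way in rows F and G, where 23.7% of 9003 genes were, 1041 of them higher and 1093 lower. The median log2 ratio of the 8 genes was -0.22, against -0.14 over all 9003 genes. The summed level had a median of 2165 CPM in rows F and G (260 to 4267) and 2173 CPM in the other rows (168 to 5799).

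HMGCS1 had 0 to 808 CPM in rows F and G (median 272, mean 305 ± 248, SD over 22 libraries), against 15.3 to 2870 CPM in the other rows (median 390, mean 537 ± 581, SD over 62 libraries). Its log2 ratio of -0.82 was the lowest of the 8, and the ranges overlapped. INSIG1 averaged 79.7 ± 112 CPM in rows F and G and 126 ± 153 CPM in the other rows, a log2 ratio of -0.65. SQLE averaged 201 ± 216 CPM in rows F and G and 140 ± 163 CPM in the other rows, a log2 ratio of 0.52, the highest of the 8. The remaining ratios were -0.42 for SREBF2, -0.30 for FDFT1, -0.14 for DHCR7, 0.33 for IDI1 and 0.37 for SC5D. Each of these differences was smaller than the SD over libraries within either set of rows.

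TMM scaling moved the median of all genes by -0.37, with 7.62% of them then 2-fold higher and 24.2% 2-fold lower, and HMGCS1 (-1.40) and INSIG1 (-1.03) then passed 2-fold, though neither did relative to the median of all genes under that scaling. IDI1 had a log2 ratio of -0.10 under TMM scaling, where all genes had a median of -0.51, so its sign depended on the scaling, and under the ratio of medians DHCR7 and SREBF2 turned positive (0.04 and 0.18). Depth and marker genes of other cell types differed between the same rows. The median depth was 498244 gene reads in rows F and G and 889048 in the other rows. The 5 neural markers summed to a median of 481 CPM in rows F and G (210 to 2012) and 213 CPM in the other rows (31.4 to 1071), and PAX6 was 2-fold higher in rows F and G. The other neural markers did not all follow, with log2 ratios of 1.14 for SOX1 (mean 4.14 CPM), 0.55 for MAP2, 0.02 for NES and -0.14 for TUBB3. The 4 trophoblast and amnion markers summed to a median of 45.7 CPM in rows F and G (14.4 to 203) and 10.6 CPM in the other rows (0 to 81.6), with CGA under 1 CPM on average, and GATA3 was 2-fold higher in rows F and G. The 4 fibroblast markers summed to 18.8 CPM in rows F and G (2.16 to 338) and 10.4 CPM in the other rows (0 to 802) with LUM under 1 CPM on average, and none of them that averaged 10 CPM or more was past 2-fold. The 4 mesendoderm markers measured summed to 15.1 CPM in rows F and G (1.94 to 571) and 26.4 CPM in the other rows (0 to 472), with SOX17 under 1 CPM on average and none past 2-fold. Over the 84 libraries PAX6 averaged 147.5 CPM and GATA3 20.3 CPM. In the 6 libraries under 1% mitochondrial reads, pooled, PAX6 had 1259 CPM and GATA3 186.5 CPM. The neural markers summed there to a median of 2183 CPM, and the trophoblast and amnion markers to 180 CPM. The fibroblast markers summed there to 55.6 CPM and the mesendoderm markers to 82.8 CPM. All of these medians were above those of rows F and G, so sums of these markers cannot by themselves be read as expression by the cells. The source of these marker reads was not tested. The part of depth and of the markers in the values of the 8 genes was not tested.

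**Figure D4:**
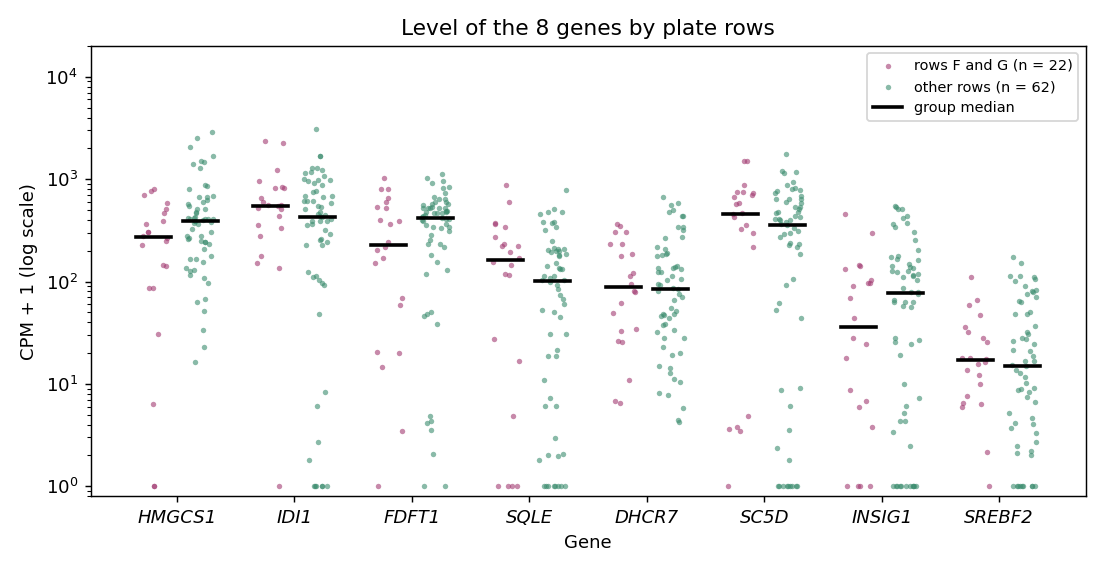
Level of each gene in CPM (y axis, log scale of CPM + 1) in the 22 libraries of rows F and G and the 62 libraries of the other rows (x axis, by gene), with 1 point per library. The 2 sets overlap for every gene, and HMGCS1 has the lowest log2 ratio, -0.82.

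In the libraries with little mitochondrial RNA most of the 8 genes were lower than in the 84 libraries, as were most of the 9003 genes. The 6 such libraries had 105528 to 155710 gene reads (median 117071) and were pooled. Of the 8 genes, 6 were at least 2-fold higher in the 84 libraries than in this pool and 0 were 2-fold lower, where 65.3% of 9003 genes were 2-fold higher and 15.7% were 2-fold lower. The median log2 ratio was 4.66 for the 8 genes and 2.0 for all 9003. These 2 sets were not matched for level, with a median of the mean levels of 270 and 37.96 CPM. Other lists of genes gave 3.27 (glycolysis), 4.09 (S phase), 4.84 (housekeeping), 5.01 (G2/M) and 5.57 (pluripotency). The ratio is therefore not particular to the 8 genes. HMGCS1 averaged 476 CPM in the 84 libraries and had 3 reads in the pool, 4.11 CPM, a ratio of 116 with an exact Poisson 95% interval of 39.6 to 561 from the count in the pool. SC5D averaged 423 CPM in the 84 libraries and 8.23 CPM in the pool (6 reads). IDI1 averaged 583 CPM in the 84 libraries and 13.7 CPM in the pool (10 reads). FDFT1 averaged 384 CPM in the 84 libraries and 9.60 CPM in the pool (7 reads). SQLE averaged 156 CPM in the 84 libraries and 8.23 CPM in the pool, and INSIG1 averaged 114 CPM in the 84 libraries and 5.49 CPM in the pool. These 6 genes still had a read in 3 to 5 of the 6 low libraries, so a single read of them is also found where little RNA of the cell is.

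DHCR7 and SREBF2 differed from the other 6. DHCR7 averaged 140 CPM in the 84 libraries and 101 CPM in the pool (74 reads), and the 6 low libraries had 64.4, 77.8, 96.3, 110, 123 and 136 CPM. Of the 84 libraries, 36 lay below the lowest of these 6. SREBF2 averaged 30.6 CPM in the 84 libraries and 17.8 CPM in the pool (13 reads), with 8.44 to 28.4 CPM in the 6 low libraries and a read in 6 of 6. Reads of DHCR7 and SREBF2 at these levels are therefore found in libraries with almost no mitochondrial RNA, and their presence in a library at a low level cannot be read as expression. In the 6 libraries short of reads or genes, 283258 gene reads pooled, DHCR7 had 131 CPM and SREBF2 38.8 CPM, while HMGCS1 and IDI1 had 10.6 CPM each.

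Of 50 genes in 6 lists, 41 averaged 10 CPM or more, against 15.4% of all 58521 symbols. Of the genes from acetyl-CoA to squalene, 7 of 10 did, of those from squalene to cholesterol 10 of 11, and of the SREBP control genes 6 of 7. Of the uptake and transport genes 7 of 9 did, of the efflux and storage genes 3 of 5, and of the fatty acid genes under SREBP 8 of 8. These counts include genes that were no lower in the pool of low libraries, such as TM7SF2 (16.8 CPM, and 17.8 CPM in the pool).

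Among the synthesis genes outside the 8, MSMO1 averaged 621 ± 555 CPM (SD over 84 libraries) and was read in 84 of 84, and EBP, a sterol isomerase, averaged 177 ± 161 CPM. FDPS, which makes farnesyl diphosphate, averaged 79.6 ± 68.7 CPM, but its reads over both strand columns were 4.99 times those without regard to strand. MVK (4.51 CPM), PMVK (8.54 CPM) and MVD (8.63 CPM), the kinases and decarboxylase between mevalonate and isoprene units, were all under 10 CPM, and so was CYP51A1 (2.5 CPM). The pool of low libraries had 6.86 CPM of MVK and 9.60 CPM of MVD, so these means cannot be read as expression. It had 1.37 CPM of PMVK and 0 CPM of CYP51A1. With both strand columns summed, FDPS averaged 378 CPM and MVK 10.1 CPM. GENCODE 29 places 2844 exon bases (79.4%) of CYP51A1 within another gene on the same strand.

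Of the regulators outside the 8, SCAP averaged 18.6 ± 39.5 CPM and SREBF1, the other SREBP gene, 4.45 ± 9.11 CPM. The proteases averaged 27.9 ± 62.2 CPM for MBTPS1 and 18.8 ± 50.4 CPM for MBTPS2. INSIG2 averaged 131 CPM with a median of 3.8 CPM, was under 10 CPM in 47 libraries and reached 3607 CPM in well C12. Without that well INSIG2 averaged 89.7 CPM. Of the genes of uptake and sterol transport, TMEM97 averaged 174 ± 147 CPM, NPC2, a lysosomal cholesterol carrier, 132 ± 112 CPM, and STARD4 129 ± 176 CPM. LIPA, the lysosomal acid lipase, averaged 83.5 ± 120 CPM and NPC1, which acts with NPC2, 32.9 ± 59.5 CPM. The efflux and storage genes were low, with SOAT1 at 17.8 ± 43.6 CPM and ABCA1 at 12.4 ± 44.7 CPM, of which well E9 held 38%. In the pool of low libraries MBTPS1 had 32.9 CPM, NPC1 34.3 CPM, ABCA1 46.6 CPM, SCAP 12.3 CPM and SREBF1 6.86 CPM. The mean levels of these genes therefore cannot be read as expression. MBTPS2 had 0 CPM in that pool, SOAT1 1.37 CPM, and NPC2 and LIPA 5.49 CPM each.

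SCD, the desaturase of fatty acids, had the highest mean CPM of the 50 genes. It had 756 ± 408 CPM, a range up to 2104 CPM and a read in 84 of 84 libraries. Per kilobase of exon MSMO1 was higher, with 215 against 141 CPM per kilobase for SCD. ELOVL6 averaged 230 ± 200 CPM, ACLY 149 ± 126 CPM and ACACA 101 ± 123 CPM. In rows F and G, 1 of the 8 fatty acid genes (ACSS2) was 2-fold higher than in the other rows. Lower there by 2-fold were 1 of the SREBP control genes (INSIG2), 1 of the uptake and transport genes and 1 of the efflux and storage genes (ABCA1), and none of the 17 synthesis genes averaging 10 CPM or more was past 2-fold either way. Single libraries carried 3 of these 4 calls: the log2 ratio was 0.16 for ACSS2 without well G10 (1.08 with it), -0.41 for INSIG2 without well C12 (-1.07 with it) and -0.77 for ABCA1 without well E9 (-1.48 with it). Against the pool of low libraries, the 84 libraries were 2-fold higher for 7 of 7 genes of that level from acetyl-CoA to squalene, 7 of 10 from squalene to cholesterol, 3 of 6 of SREBP control, 4 of 7 of uptake and transport, 1 of 3 of efflux and storage and 7 of 8 of the fatty acid genes. They were 2-fold lower for 1 gene of uptake and transport and 2 of efflux and storage.

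**Figure D5:**
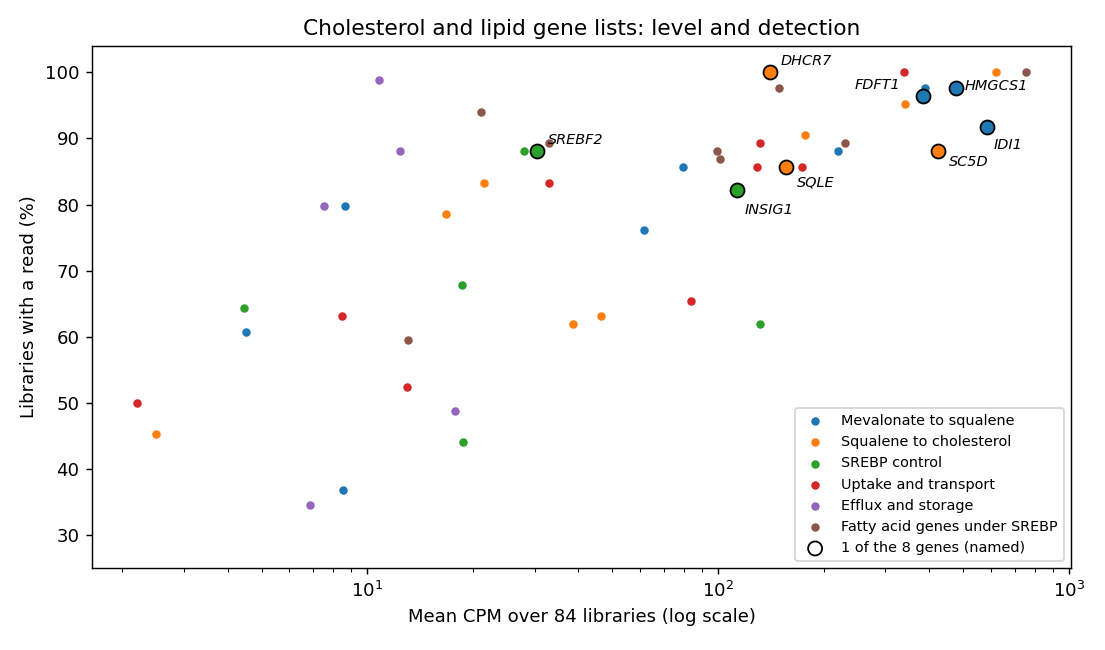
Mean level (x axis, CPM, log scale) and percent of the 84 libraries with a read (y axis) for the 50 genes of the 6 lists, coloured by list, with the 8 genes outlined and named. HMGCS1, IDI1, FDFT1 and SC5D lie at the upper right, and SREBF2, at 30.6 CPM, lies to the left of the other 7.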

How the data were processed

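Messenger RNA of 96 single HUES64 cells was captured by its poly(A) tail, amplified by SMART-seq2 and made into Nextera XT libraries, per the labels' protocols. STAR 2.7.3a, FastQC and 2 build names, hg38 and GRCh38.p2, are listed in the submitters' processing notes. The release of the annotation is not given in the sources used here. The deposited tables each held raw counts of reads per gene in 3 columns, unstranded, forward and reverse, with no molecular identifiers. Summary lines (88.8% of reads) were left out. Well names were taken from titles, which for 16 wells in columns 1 and 12 disagreed with the name of the table.

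Counts without regard to strand were scaled to CPM of gene reads (Python 3.11.15, numpy 2.4.6, pandas 2.3.3). No normalization beyond CPM was applied, and no doublet caller was run on these wells, labelled as single cells. Log2 ratios are of mean CPM + 1, over genes averaging 10 CPM or more. With 1 group and 1 sample, no test was made, and wells are not replicates. TMM factors came from edgeR 4.0.16. The calculations were tested on simulated data. The 8 genes and all lists were chosen with earlier results of these data known. Named genes are the 8, the pathway lists and the 3 genes closest to each of the 8 (10 for their mean z-score); not every gene so named is reported here. Intervals are exact (95%).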

Additional observations from a re-analysis of the deposited data

Results flagged for a closer look

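HMGCS1 stood out in the strand columns, which the levels above do not use: reads of both strand columns were 2.01 times the reads without regard to strand, and the gain equalled that of CTD-2636A23.2 in 78 of 84 libraries. DHCR7 stood out in the 6 libraries under 1% mitochondrial reads, which are outside the 84 libraries: it had 101 CPM there, pooled, against 4.11 to 17.8 CPM for the other 7 genes. The source of these DHCR7 reads was not tested.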

How the results depend on the processing

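No paired analysis was possible because all wells formed 1 group with no replicate numbers to pair. Of 68 recalculations of 6 summary values, 65 kept their sign and stayed within a tolerance, 1.5 times for counts and otherwise 1 SD over the libraries, genes or pairs behind the value, which is wide. The median summed level ranged from 2057 to 2478 CPM, the median rho between the 8 genes from 0.11 to 0.23, and the median log2 ratio of the 84 libraries over the low libraries from 3.76 to 6.19. All 8 genes were read in at least 50% of libraries under each of 11 alternatives. In the main setting so were 8185 of the 9003 genes averaging 10 CPM or more. The median log2 ratio of rows F and G over the other rows was 0.11 as a ratio of medians, the opposite direction to -0.22, and ranged down to -0.54. The number of the 8 genes past 2-fold in that comparison was 2 under TMM factors and 1 (INSIG1, -1.08) as a ratio of medians, against 0. Without rows F and G the rho of the summed level was 0.015 with the ratio of MT-CO2 to MT-CO1, against -0.057, and -0.022 with GAPDH, against 0.073. The ratio of medians, the summed strand columns the values without single libraries or without DHCR7 and SREBF2, the adjusted rho over all pairs and the rho without rows F and G were chosen after seeing the data. A library at the shallow end allowed up to 25.3 CPM at 0 reads, so absence below that level was not detectable there.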
